A study of Mus musculus with 4 samples.

Results

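The genes described here are those of the major histocompatibility complex (MHC) class I molecule in mouse liver cancer cells: 8 heavy chain genes, the light chain gene B2m and the transactivator gene Nlrc5. They were chosen by name, 10 of 55487 annotated genes in the count table, with earlier results of these data known. The heavy chains were the classical H2-K1 and H2-D1 and the nonclassical H2-Q4, H2-Q6, H2-Q7, H2-T22, H2-T23 and H2-M3. RNA was sequenced from LPC-HRas cells, unstimulated and grown in medium with serum, in 2 groups of 2 libraries. The genotype was UBXN9-overexpressing for libraries UBXN9 1 and UBXN9 2, and control for libraries control 1 and control 2. All 4 libraries came from 1 cell line. The labels used here do not state the strain of mouse, the vector or what the control cells carry, nor whether libraries of a group came from separate cultures. P-values therefore measure only the spread between these libraries, which may be technical.

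A class I molecule is a heavy chain held together by B2m and a short peptide. The peptide comes mostly from the cell's own proteins, cut by the proteasome, moved into the endoplasmic reticulum by TAP and loaded there. CD8 T cells read the peptide on classical class I molecules, and natural killer cells sense whether class I is there. Nlrc5 binds no DNA by a known site of its own, but joins the RFX, CREB/ATF and NF-Y factors on class I promoters and raises transcription. Interferons raise Nlrc5, and they act on class I promoters also through the interferon-stimulated response element (ISRE). NF-kB binds a further site, which lies upstream of the ISRE in the classical heavy chain genes.

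Stretches of 5 promoters are shown, with letters of the sites on which these factors are known to act marked where they were found. They come from the RefSeq promoter table of build GRCm38.p6, which held windows of 300 bases, 250 before and 50 after the start, for 9 of the 10 genes; Nlrc5 had no entry. Each is written 5′ to 3′ in the direction of the gene. Capitals mark matches on either strand to ISRE letters (GAAANNGAA or GAANNGAAA), an NF-kB site (GGGATTCCC), the half-site of CREB/ATF factors (TGACG) and the CCAAT box of NF-Y (CCAAT, or ATTGG when read on this strand). The stretches lie at chr17:34000353-34000463 on the minus strand, chr17:35262918-35263051 on the plus strand, chr2:122147542-122147644 on the plus strand, chr17:36042754-36042938 on the minus strand and chr17:36032743-36032830 on the minus strand.
H2-K1: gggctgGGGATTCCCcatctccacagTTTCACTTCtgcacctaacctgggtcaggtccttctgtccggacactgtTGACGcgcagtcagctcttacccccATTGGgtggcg
H2-D1: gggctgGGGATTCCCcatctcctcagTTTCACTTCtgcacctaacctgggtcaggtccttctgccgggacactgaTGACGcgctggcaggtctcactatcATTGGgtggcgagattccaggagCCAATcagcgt
B2m: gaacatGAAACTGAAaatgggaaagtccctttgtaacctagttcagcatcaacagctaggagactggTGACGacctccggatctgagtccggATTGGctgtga
H2-T22: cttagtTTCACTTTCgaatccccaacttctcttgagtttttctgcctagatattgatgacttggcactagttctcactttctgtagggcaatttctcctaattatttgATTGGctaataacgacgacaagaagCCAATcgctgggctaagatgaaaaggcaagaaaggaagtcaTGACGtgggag
H2-T23: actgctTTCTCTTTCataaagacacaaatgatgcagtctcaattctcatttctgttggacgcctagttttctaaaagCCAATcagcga
The ISRE letters were found upstream of the start in all 9 windows, and in 14.9% of the 32544 distinct windows of that table. The NF-kB letters were in 4 of the 9, H2-K1, H2-D1, H2-Q6 and H2-Q7, and in 0.353% of all windows. Other forms of the NF-kB site were not searched for, so windows without these letters may still hold one. A CREB/ATF half-site was upstream of the start in 7 of the 9, all but H2-Q6 and H2-T23, and in 20.9% of all windows. CCAAT boxes were in all 9 and in 37.4% of all windows. In H2-K1, H2-D1 and B2m the half-site was followed by an ATTGG after 20 bases, and in H2-Q7 after 19; this spacing, noted after the sequences had been read, occurred in 0.132% of all windows. Motifs were picked with the class I promoters in mind and trimmed to 9 letters after a first search, and the heavy chain promoters are copies of each other, so these matches describe the windows and are not evidence of binding.

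The files hold estimated counts per gene. Levels are given as CPM, counts relative to the size of the library, scaled with TMM factors. Library totals ran from 21814969 to 26292686 counts. Groups were compared with edgeR's quasi-likelihood F test, two-sided, on the 13230 genes that passed a filter on low counts; a gene was called where its Benjamini-Hochberg adjusted p was under 0.05. By this rule 7.44% of all genes tested were called, 5.06% as higher in UBXN9 cells and 2.38% as lower. With 2 libraries on each side the smallest two-sided p of an exact permutation test is 0.333. In bulk RNA, fewer cells of a type and less RNA per cell cannot be told apart. Aspscr1, the mouse gene for UBXN9, had 392 and 380 CPM in the UBXN9 libraries, against 92.1 and 115 CPM in the controls (edgeR log2 fold change 1.90, SE 0.18, adjusted p = 0.00144). The label liver cancer cells was checked against markers. Hepatocyte markers were near 0, with 7 of 8 under 10 counts in every library and Alb and Fgb at 0. Of 8 biliary and progenitor markers, Epcam, Krt7, Cdh1 and Prom1 were too low to be tested, with Prom1 at 0 in every library. Spp1 and Sox9 of this list were abundant, at 2742 and 2991 CPM in UBXN9 libraries and 2483 and 2198 CPM in controls for Spp1, and 194 and 208 CPM against 168 and 174 CPM for Sox9. Of 4 tested markers of this list, Cd24a and Krt19 fell (edgeR log2 fold changes -1.05 and -1.69, adjusted p = 0.0102 and 0.0294; 0.0523 and 0.143 without control 2).

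Class I RNA was higher in UBXN9 cells across the set, by amounts that ranged from 1.78-fold for H2-T23 to 58.5-fold for Nlrc5. Of the 10 genes, 8 passed the filter and all 8 were called higher, beside 5.06% of all genes tested called higher and 7.44% called in either direction. Of these, H2-Q4 passed the filter only through its UBXN9 libraries, so its difference was required for it to be tested. H2-Q6 and H2-Q7 were too low to be tested and had 0 counts in both controls. In each of the 8 tested genes both UBXN9 libraries lay above both controls, as in 25.0% of all genes tested, while 25.6% had both UBXN9 libraries below both controls. The median log2 fold change over all genes tested was -0.0056.

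**Figure D1:**
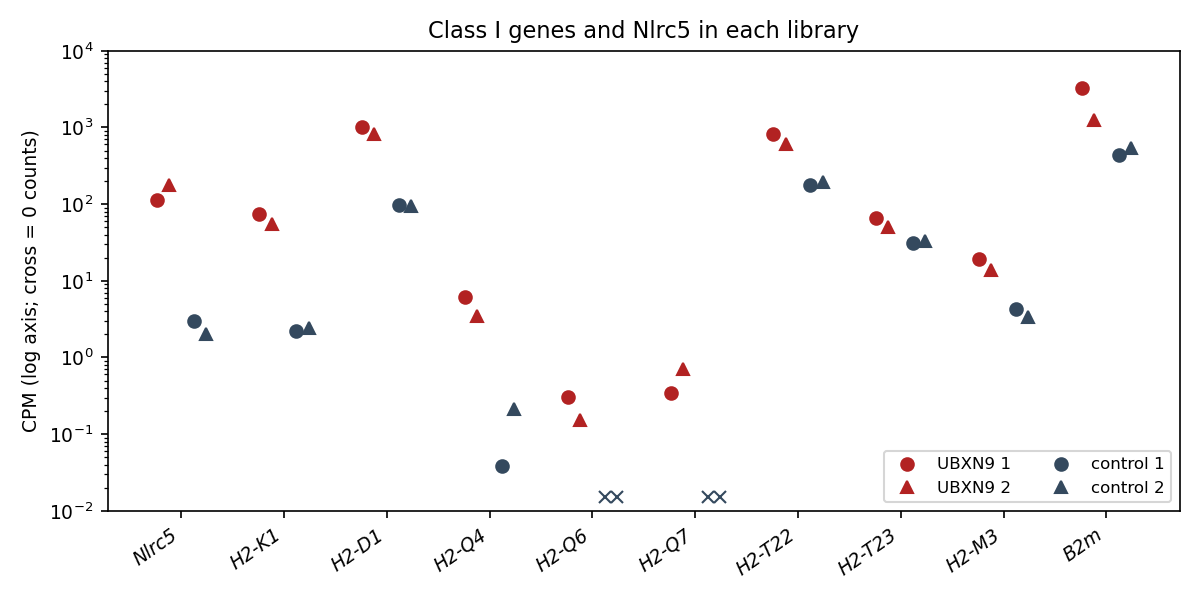
CPM on a log axis for each of the 10 genes in each library, with UBXN9 libraries in red to the left of controls in dark grey, circles for replicate 1 and triangles for replicate 2; crosses mark 0 counts. Both UBXN9 libraries lie above both controls for each gene, B2m has the widest gap between its UBXN9 libraries on the CPM scale (3249 and 1261 CPM), and H2-T23 has the smallest gap between groups.

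Nlrc5 (ENSMUSG00000074151, chr8:94434356-94527272) had 114 and 179 CPM in UBXN9 1 and UBXN9 2, against 2.98 and 2.0 CPM in control 1 and control 2. In counts this was 2295 and 4760 in the UBXN9 libraries, against 78 and 44 in the controls. It was thus near silent in control cells and clearly present in UBXN9 cells, with the higher level in UBXN9 2. Nlrc5 rose by a log2 fold change of 5.87 (SE 0.33, edgeR adjusted p = 0.000262). The lincRNA 9330175E14Rik (chr8:94422898-94435103), on the opposite strand, overlaps the first 748 bases of Nlrc5 and shares 78 exon bases with it. It had 284 and 318 counts in the UBXN9 libraries and 8 and 12 in the controls (log2 fold change 4.95, SE 0.36, edgeR adjusted p = 0.000555). The library kit named in the labels does not mark strand, so reads from the shared bases cannot be told apart.

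H2-K1 (ENSMUSG00000061232, chr17:33996017-34000347), a classical heavy chain that presents peptides to CD8 T cells, had 74.9 and 55.4 CPM in UBXN9 1 and 2, against 2.21 and 2.45 CPM in the controls. Its controls held 58 and 54 counts and its UBXN9 libraries 1505 and 1468, so the 2 groups were far apart. The log2 fold change was 4.80 (SE 0.24, edgeR adjusted p = 0.00022), a 27.9-fold rise. H2-D1 (ENSMUSG00000073411, chr17:35262730-35267499), the other classical heavy chain, had 1001 and 826 CPM in UBXN9 1 and 2, against 96.0 and 95.6 CPM in the controls. Its log2 fold change was 3.25 (SE 0.2, edgeR adjusted p = 0.000304), a 9.54-fold rise. The larger fold for H2-K1 started from a lower level: per kilobase of exon, control cells had a mean of 0.793 CPM of H2-K1 and 37.1 CPM of H2-D1. The difference between the 2 fold changes was not tested. UBXN9 cells had 22.2 CPM per kilobase of H2-K1 and 354 of H2-D1, so H2-D1 remained the more abundant.

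Among the nonclassical heavy chains, H2-T22 (ENSMUSG00000056116, chr17:36037128-36042747), a heavy chain that binds no peptide and is recognised by gamma delta T cells, was the most abundant. It had 823 and 606 CPM in UBXN9 1 and 2, against 175 and 196 CPM in the controls. The groups were well separated, and the log2 fold change was 1.95 (SE 0.21, edgeR adjusted p = 0.00274). The antisense gene A930015D03Rik shares 1003 exon bases with H2-T22 on the opposite strand. It was counted at 19.1 and 18.4 in the UBXN9 libraries and 43.6 and 27.5 in the controls. H2-T22 was counted at 16540 and 16075 in the UBXN9 libraries and 4597 and 4315 in the controls. The shared bases are most of the 1111 exon bases of A930015D03Rik, and the library kit does not mark strand. Reads from them cannot be told apart, so the low count of A930015D03Rik does not show how few of them are its own.

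H2-T23 (ENSMUSG00000067212, chr17:36029773-36032855) encodes Qa-1, the heavy chain that shows leader peptides of other class I chains to the inhibitory receptor NKG2A on natural killer cells. It had 65.8 and 50.1 CPM in UBXN9 1 and 2, against 31.5 and 33.4 CPM in the controls. The groups did not overlap, but the rise was 1.78-fold, the smallest of the 8 (log2 fold change 0.84, SE 0.19, edgeR adjusted p = 0.0453). The call lay just inside the threshold and was lost without control 1 (adjusted p = 0.255), without control 2 (0.232), with limma-voom (0.053), with upper-quartile factors (0.0537) and with library totals alone (0.0622).

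H2-M3 (ENSMUSG00000016206, chr17:37270220-37274484), which presents peptides that begin with N-formyl methionine, had 19.5 and 13.7 CPM in UBXN9 1 and 2, against 4.27 and 3.36 CPM in the controls. Its 392 and 364 counts in the UBXN9 libraries and 112 and 74 in the controls gave a log2 fold change of 2.12 (SE 0.28, edgeR adjusted p = 0.00606). H2-Q4 (ENSMUSG00000035929, chr17:35379617-35385290), a nonclassical heavy chain of the Q region, had 122 and 91.7 counts in UBXN9 1 and 2, against 1 and 4.64 in the controls. It was nearly absent from control cells, and its log2 fold change of 5.18 (SE 0.66, edgeR adjusted p = 0.00517) rests on those few control counts. The value was 4.35 without control 1 and 6.78 without control 2, in fits that leave 1 control library. H2-Q4 passed the filter on low counts only through its UBXN9 libraries. Its difference was thus required for it to be tested, and these values are not read as support.

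H2-Q6 (ENSMUSG00000073409, chr17:35424850-35430055) and H2-Q7 (ENSMUSG00000060550, chr17:35439155-35443773) are neighbours that encode Qa-2 chains. H2-Q6 had 6.14 and 4.05 counts in UBXN9 1 and 2 and 0 in both controls. H2-Q7 had 7.01 and 18.7 counts in UBXN9 1 and 2 and 0 in both controls. Against a floor of 3 counts over the control group, the observed UBXN9 level was 3.52-fold higher for H2-Q6 and 8.86-fold higher for H2-Q7. The floor covers counting error of the controls only, not that of the UBXN9 libraries, so these values are not lower bounds on the fold. Without the filter on low counts, edgeR gave an adjusted p of 0.187 for H2-Q6 and 0.00171 for H2-Q7. H2-Q7 was also tested in fits without 1 library. Its log2 fold change was 6.64 without control 1, 6.73 without control 2 and 7.17 without UBXN9 1. With 0 counts in both controls, it passed the filter in these fits only through its UBXN9 libraries. Its difference was thus required for it to be tested, and the values are not read as support.

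**Figure D2:**
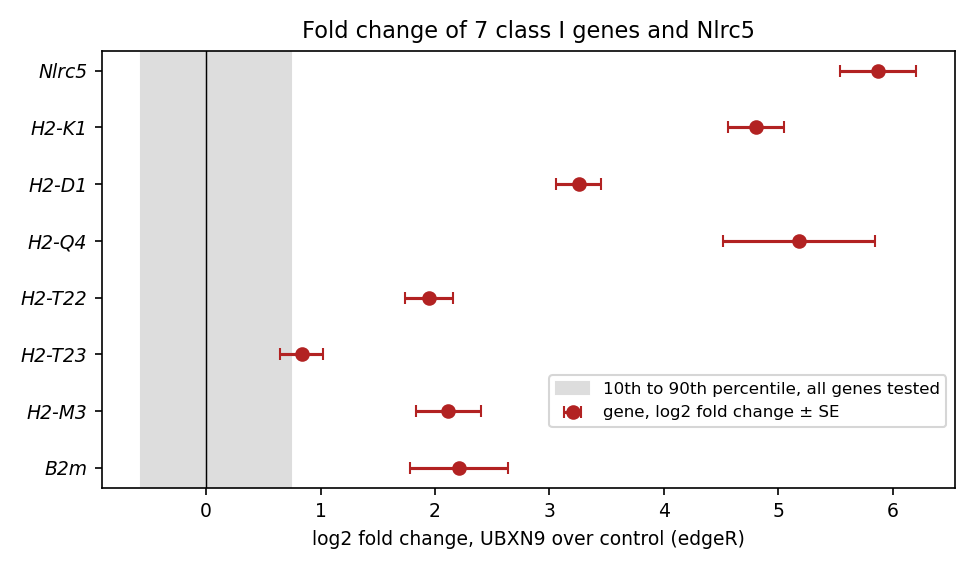
Log2 fold change of UBXN9 over control from edgeR for Nlrc5 and 7 class I genes, as points with bars of 1 SE, with the band between the 10th and 90th percentile of all genes tested in grey (-0.57 to 0.74). Nlrc5, H2-Q4 and H2-K1 have the highest values, at 5.87, 5.18 and 4.80, and the bar of H2-T23, at 0.84, reaches into the band.

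B2m (ENSMUSG00000060802, chr2:122147686-122153083), the light chain shared by all the heavy chains above, rose in both UBXN9 libraries but to unlike levels. It had 3249 CPM in UBXN9 1 and 1261 CPM in UBXN9 2, against 438 CPM in control 1 and 537 CPM in control 2. In counts this was 65277 and 33435 in the UBXN9 libraries, against 11489 and 11833 in the controls. Even the lower UBXN9 library was above both controls, yet the 2 UBXN9 libraries differed 2.58-fold from each other. B2m rose by a log2 fold change of 2.21 (SE 0.43, edgeR adjusted p = 0.0259). It was 1.37 without UBXN9 1 (adjusted p = 8.52e-07) and 2.74 without UBXN9 2 (adjusted p = 2.61e-24), so its size depends on which of them is read. These fits take the spread of the single UBXN9 library left to be that of the controls.

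Gene length moved with the difference between libraries of the same group. Across 13219 genes tested, which are not independent replicates, the log2 ratio of UBXN9 1 to UBXN9 2 had a Spearman correlation of -0.423 with summed exon length. That of control 1 to control 2 had a correlation of 0.326, in the other direction. B2m has 860 exon bases and is the shortest of the 10 genes. Among 166 genes of like length, at least 0.8 times that of B2m and no longer than its length divided by 0.8, with a mean of at least 10 CPM, the median log2 ratio of UBXN9 1 to UBXN9 2 was 0.43. B2m stood at 1.37, and in this group of genes only mt-Co3, a mitochondrial gene, was higher, at 2.21. Nlrc5, with 8493 exon bases the longest of the 10, stood on the other side, with a log2 ratio of -0.65 between UBXN9 1 and UBXN9 2; the median of 1539 genes of like length was -0.18. With the length trend of each library taken out of the fit, the log2 fold change between groups was 2.07 for B2m (edgeR adjusted p = 0.00596) and 5.83 for Nlrc5 (2.65e-05). The other 6 tested genes, all heavy chains, had log2 ratios between the UBXN9 libraries of 0.28 for H2-D1 to 0.81 for H2-Q4.

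**Figure D3:**
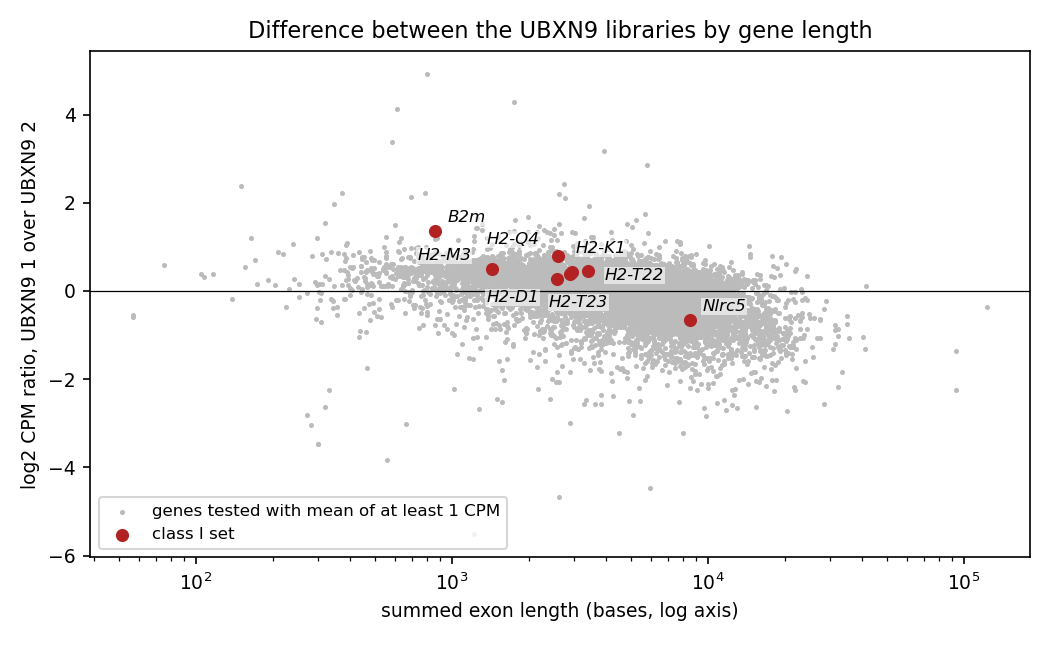
Log2 CPM ratio of UBXN9 1 over UBXN9 2 against summed exon length on a log axis, with genes tested at a mean of at least 1 CPM as grey points and the class I genes and Nlrc5 in red. The grey points slope down with length, B2m (1.37) lies above genes of its length and Nlrc5 (-0.65) lies below 0 with the long genes.

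Relative to the heavy chains, B2m RNA was lower in 1 library. Levels of different genes were compared per kilobase of exon. The 8 heavy chains together had 694 and 545 CPM per kilobase in UBXN9 1 and 2, against 103 and 109 in the controls. B2m had 3778 and 1466 CPM per kilobase in UBXN9 1 and 2, against 510 and 624 in the controls. The ratio of B2m to summed heavy chains was therefore 5.45 in UBXN9 1 and 2.69 in UBXN9 2, against 4.94 and 5.72 in the controls. UBXN9 1 fell between the controls on this ratio, and UBXN9 2 lay below all other libraries. Summed to 1 row before the fit, the counts of the 8 heavy chains had a log2 fold change of 2.47 (SE 0.21).

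The make-up of the heavy chain RNA also differed between the groups. H2-D1 made up 55.9% and 58.8% of the heavy chain CPM per kilobase in UBXN9 1 and 2, against 36.0% and 33.9% in the controls. H2-T22 made up 34.8% and 32.6% in UBXN9 cells, against 49.8% and 52.5% in control cells, where it was the leading heavy chain. H2-T23 made up 3.29% and 3.18% in UBXN9 cells, against 10.6% in each control. H2-K1 held 3.68% and 3.46% in UBXN9 cells, against 0.73% and 0.764% in the controls; over the longest transcript these were 4.84% and 4.54% in UBXN9 cells and 0.992% and 1.04% in controls. H2-M3 held 1.96% and 1.75% in UBXN9 cells, against 2.88% and 2.14% in the controls. On each of these 5 shares the groups did not overlap. Shares carry no test here, since they are ratios within the set.

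**Figure D4:**
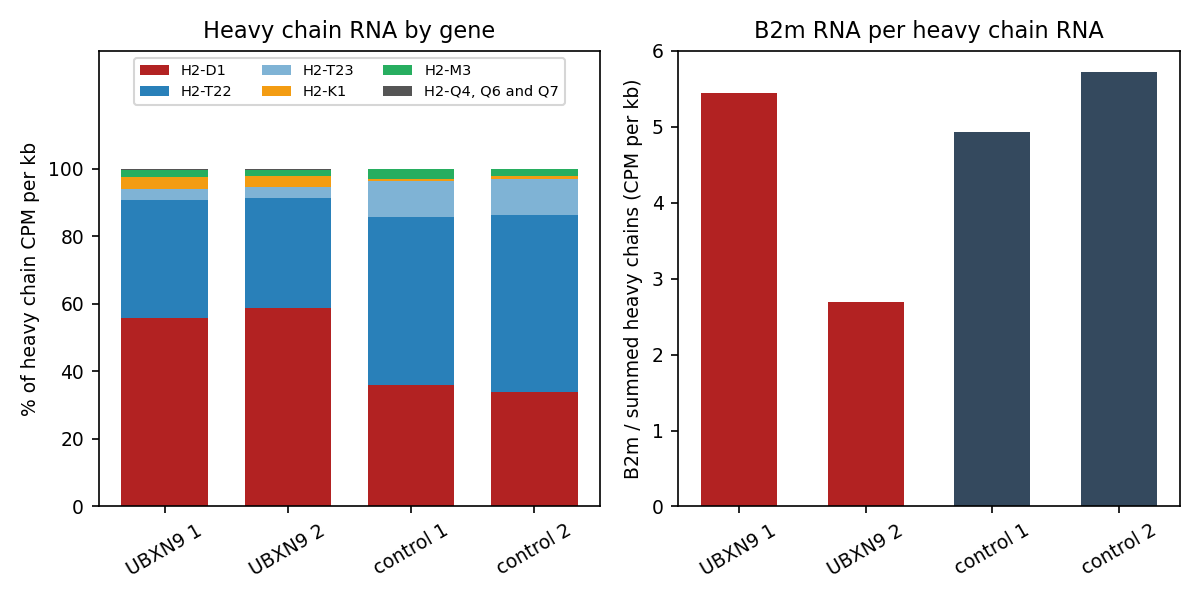
Left, the share of each heavy chain gene in the summed heavy chain CPM per kilobase of each library, as stacked bars in percent. Right, the ratio of B2m to summed heavy chains on the same scale; H2-D1 takes 55.9% and 58.8% in UBXN9 libraries and 36.0% and 33.9% in controls, and the ratio is lowest in UBXN9 2, at 2.69.

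The order of the 10 genes by level per kilobase differed between the groups. In UBXN9 cells B2m led with 2622 ± 1635 CPM per kilobase (SD, n = 2), followed by H2-D1 with 354 ± 48.0 and H2-T22 with 209 ± 45.0. H2-K1 (22.2 ± 4.71), H2-T23 (20.1 ± 3.86) and Nlrc5 (17.3 ± 5.43) came next, with library values that overlapped. Per kilobase of longest transcript in place of all exons, H2-K1 had 40.0 and 29.5 CPM in UBXN9 1 and 2 and no longer overlapped H2-T23, at 24.9 and 18.9. H2-M3 followed with 11.6 ± 2.85, its higher library overlapping the lower one of Nlrc5, then H2-Q4 with 1.83 ± 0.71. H2-Q7 and H2-Q6 came last at 0.123 and 0.11, also overlapping. In control cells the order was B2m at 567 ± 81.0, H2-T22 at 54.4 ± 4.21, H2-D1 at 37.1 ± 0.107, H2-T23 at 11.2 ± 0.469 and H2-M3 at 2.65 ± 0.451. H2-K1 at 0.793 ± 0.057, Nlrc5 at 0.293 ± 0.0816 and H2-Q4 at 0.0479 ± 0.0469 followed, and no neighbours among these overlapped. H2-K1 thus stood above H2-M3 in UBXN9 cells and below it in control cells.

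Heavy chain genes are close copies, so the split of reads between them is uncertain. Of windows of 100 bases along the longest annotated transcript, 38.1% of those of H2-T22 also occurred in transcripts of other genes, 30.5% in A930015D03Rik on the opposite strand and 6.92% in H2-T10. The share was 14.6% for H2-Q4, 13.0% for H2-Q6, 12.9% for H2-Q7, 4.64% for H2-D1 and 3.93% for H2-T23. No window of H2-K1, H2-M3, B2m or Nlrc5 was shared, so for these 4 genes the windows name a single gene of the reference. Fractional counts, whose origin the sources used here do not give, occurred in all 4 libraries for H2-D1, H2-T22 and H2-T23. They occurred in no library for H2-M3, B2m and Nlrc5. H2-K1 had them in both UBXN9 libraries, at 1504.88 and 1468.28, while its controls held whole counts of 58 and 54. H2-Q4 had them in 3 libraries, and H2-Q6 and H2-Q7 in both UBXN9 libraries. Class I genes vary between mouse strains and the reference is C57BL/6J; what the strain of these cells does to the counts was not tested.

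Other class I heavy chains were mostly absent. Of 17 listed, 13 had an entry in the count table and 3 were deep enough to test. Of these 3, 2 rose, beside 5.06% of all genes tested that rose. The median log2 fold change of 2.28 is that of H2-Q10, against -0.0056 over all genes tested. H2-T24 had 53.1 and 65.2 CPM in UBXN9 libraries against 24.3 and 15.8 CPM in controls (log2 fold change 1.56, edgeR adjusted p = 0.0118). H2-T10, a close copy of H2-T22, had 3.17 and 2.79 CPM against 0.578 and 0.638 CPM in controls (log2 fold change 2.30, adjusted p = 0.0134), and an adjusted p of 0.0511 without control 2, which left 1 gene called. H2-Q10 had 11 and 23.5 counts in UBXN9 libraries against 6 and 1 in controls and did not pass (adjusted p = 0.139; 0.0322 without UBXN9 1). H2-Q10 passed the filter on low counts only through its UBXN9 libraries, so its difference was required for it to be tested. The near copy H2-Q5 held 8.02 and 9.44 counts against 1 and 1. H2-K2, which was not on the list, had 64.6 and 64.8 counts in UBXN9 libraries against 40.0 and 31.0 in controls. It was tested and did not pass (log2 fold change 0.95, edgeR adjusted p = 0.169). The listed H2-Q1, H2-Q2, H2-Bl, H2-T3, H2-M1, H2-M2, H2-M9 and H2-M10.1 had 0 counts in all 4 libraries.

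Peptide supply and loading, the steps that fill class I molecules, rose with the chains. Of 13 tested genes 10 rose and 3 did not pass, with a median log2 fold change of 1.36. Of the 10, Psmb8 and Psmb9 passed the filter on low counts only through their UBXN9 libraries, so their difference was required for them to be tested; of the other 11 tested, 8 rose. The subunits of the TAP transporter were among them, Tap1 with 533 and 428 CPM in UBXN9 libraries against 6.14 and 5.81 CPM in controls, and Tap2 with 92.0 and 86.0 CPM against 5.88 and 3.9 CPM. The immunoproteasome subunit Psmb9 had 1944 and 1854 counts in UBXN9 libraries against 13 and 2 in controls, and Psmb8 had 218 and 196 against 1 and 0. Tapbp, the tapasin that bridges TAP and the heavy chain, had 1216 and 1238 CPM against 489 and 467 CPM, a log2 fold change of 1.36 (SE 0.18, edgeR adjusted p = 0.00536). The general chaperone Calr did not pass, with 1908 and 1481 CPM in UBXN9 libraries against 1272 and 1409 CPM in controls (log2 fold change 0.34, adjusted p = 0.424). All genes tested had a median log2 fold change of -0.0056, and 5.06% of them rose.

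Factors that act on class I promoters moved in part. Of 23 tested 6 rose and the others did not pass, with a median log2 fold change of 0.26, beside 5.06% of all genes tested that rose. The count of calls was 9 with the length offset (6 higher, 3 lower), a fit that called 11.5% of all genes. It also moved up and down in fits that leave 1 library in a group, and is not read there as a result about the list. Irf8 had 2 and 1 counts in UBXN9 libraries against 16 and 15 in controls and did not pass (log2 fold change -3.21, edgeR adjusted p = 0.0523); it was tested only through its control libraries. Irf7, an interferon regulatory factor, had 672 and 593 CPM in UBXN9 libraries against 103 and 100 CPM in controls, with a log2 fold change of 2.64 (SE 0.17, edgeR adjusted p = 0.000389). Irf1, a factor that binds the ISRE, had 463 and 381 CPM against 115 and 116 CPM (log2 fold change 1.87, adjusted p = 0.00136). Stat2 had a log2 fold change of 1.58, Irf2 1.04 and Irf9 0.71; the adjusted p of Irf2 was 0.176 without control 2, and that of Irf9 was 0.443 and 0.281 without control 1 and 2. The NF-kB subunits Rela (log2 fold change 0.33, adjusted p = 0.26) and Nfkb1 (0.32, 0.276) did not pass.

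The DNA-bound partners of Nlrc5 were present in both groups, and none of those named here passed; they were singled out after their values were seen. Rfx5 had 328 and 670 counts in UBXN9 1 and 2, against 474 and 307 in the controls (log2 fold change 0.38, edgeR adjusted p = 0.489). Rfxap had 402 and 496 counts against 646 and 594 (log2 fold change -0.41, adjusted p = 0.242), and Rfxank 492 and 811 against 772 and 581 (-0.019, 0.975). Of the CREB/ATF factors, Creb1 had a log2 fold change of -0.064 (adjusted p = 0.934) and Atf1 0.014 (0.984). Of the NF-Y subunits, Nfya had -0.53 (0.163), Nfyb -0.37 (0.423) and Nfyc 0.56 (0.103). Ciita, the relative of Nlrc5 that drives class II genes, had 6 and 1 counts in UBXN9 1 and 2 and 2 and 1 in the controls. Class II genes H2-Aa and H2-Ab1 were near 0 in both groups: H2-Aa had 2 and 3 counts against 2 and 1 in controls, and H2-Ab1 had 10 and 7 against 2 and 0. Of 12 genes of the class II list 2 were tested and edgeR called 0, with 1 at an unadjusted p under 0.05 and 0 called by DESeq2 or limma-voom; 2 were called without UBXN9 2, when 4 could be tested. The 2 genes tested were Cd74, with 11.1 and 9.73 CPM in UBXN9 libraries against 7.33 and 9.39 CPM in controls, and H2-DMa, with 5.23 and 3.21 CPM against 1.6 and 1.54 CPM (edgeR adjusted p = 0.0651; 0.000288 without UBXN9 2).

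Further lists gave no edgeR call in the main fit. This, and the 0 calls of the class II list, stand beside 7.44% of all genes tested called in either direction. With so few genes tested in each, 0 calls is near that share and is not read as a result about the lists. Class I-like genes outside the H2 complex, such as the immunoglobulin receptor Fcgrt and the protein C receptor Procr, had 4 of 11 genes tested and edgeR called 0, with 2 at an unadjusted p under 0.05 and 0 called by DESeq2 or limma-voom. Fcgrt, which also pairs with B2m, had 30.3 and 22.7 CPM in UBXN9 libraries against 25.1 and 26.9 CPM in controls (log2 fold change 0.024, adjusted p = 0.97). Procr had 43.7 and 31.4 CPM against 23.6 and 27.1 CPM (log2 fold change 0.57, adjusted p = 0.18). Fits without UBXN9 1 or without UBXN9 2 each leave 1 UBXN9 library and called a larger share of all genes than the main fit. Calls they gave in these lists are thus not read as results about the lists. Genes of class I turnover in the endoplasmic reticulum had 12 tested and edgeR called 0, with 3 at an unadjusted p under 0.05, 1 called by DESeq2 and 0 by limma-voom; 2 were called without UBXN9 1 and 1 without UBXN9 2. Vcp, the ATPase that UBX proteins bind, had 731 and 867 CPM against 598 and 640 CPM (log2 fold change 0.37, adjusted p = 0.308), and the chaperone Hspa5 had 1159 and 813 CPM against 696 and 664 CPM (0.54, 0.22; 0.0098 without UBXN9 2). Of 10 widely used control genes edgeR called 0, with 0 at an unadjusted p under 0.05 and 0 by DESeq2 or limma-voom; 1 was called without UBXN9 2. Gapdh had 4799 and 4170 CPM in UBXN9 libraries against 5058 and 6131 CPM in controls, and Rpl13a had 3300 and 1836 CPM against 2162 and 2617 CPM.

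**Figure D5:**
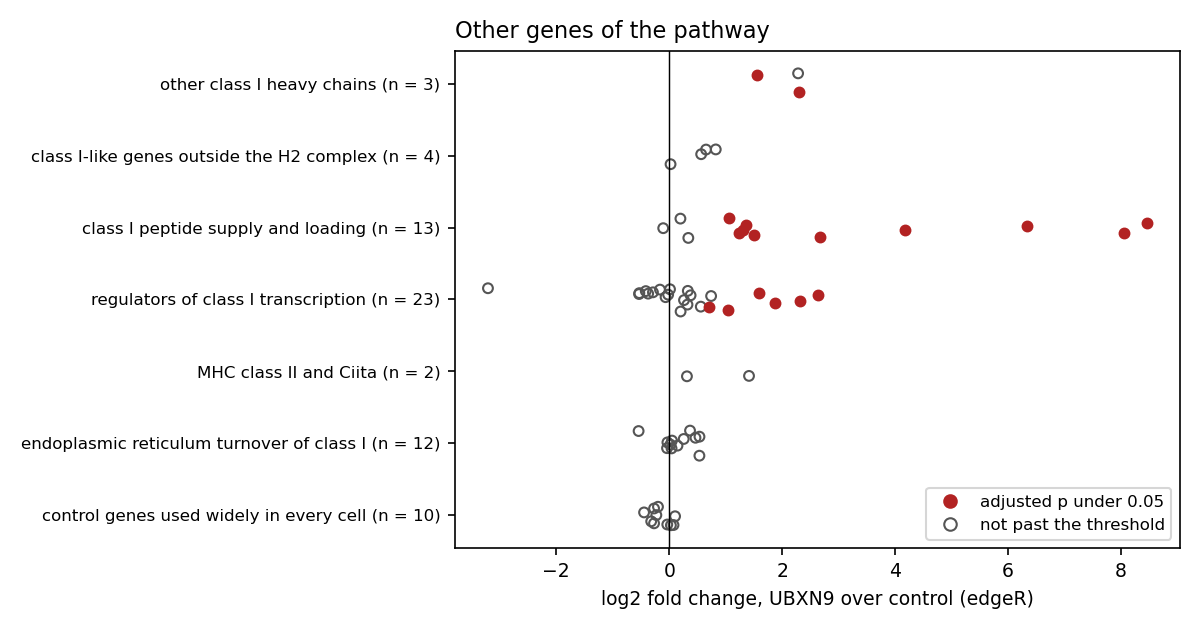
Log2 fold change of UBXN9 over control for the tested genes of 7 lists, with filled points for an edgeR adjusted p under 0.05 and open points for the rest; points are spread in height for legibility. Peptide supply and loading has 10 filled points of 13, the regulators 6 of 23 and the other heavy chains 2 of 3, while the remaining lists have none.

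Lymphoid, myeloid and endothelial markers were low, stellate and fibroblast markers ran from near 0 to abundant, and some markers moved with the UBXN9 libraries. The 10 lymphoid markers were each under 10 counts in every library, with summed levels of 0.398 and 0.189 CPM in UBXN9 1 and 2, against 0 and 0.0907 CPM in the controls; Cd3e, Cd3g and Cd8a were at 0. The 8 myeloid markers summed to 14.4 and 10.4 CPM in UBXN9 1 and 2, against 7.05 and 7.18 CPM in the controls. Lyz2 rose, with 63 and 82 counts in UBXN9 libraries against 29 and 14 (log2 fold change 1.82, edgeR adjusted p = 0.0408; 0.283 without control 2), and Cd68 did not pass, with 115 and 173 counts against 133 and 122. UBXN9 1, the library with the most B2m, also held 21 counts of C1qa and 56.2 of Csf1r, against 0 and 8.49 in UBXN9 2. In control 1 and 2 C1qa had 1 and 1 counts and Csf1r 11.8 and 14.2. Adgre1 had 4 counts in UBXN9 1 and 0 in the other libraries, and Clec4f was at 0 in all 4. The 6 endothelial markers summed to 4.58 and 4.0 CPM in UBXN9 libraries and 3.05 and 2.04 CPM in controls. Of 7 tested stellate and fibroblast markers, Col1a1 and Acta2 rose, beside 5.06% of all genes tested that rose. The other 5 did not pass. Their log2 fold changes were -0.76 for Col1a2, -0.47 for Des, -0.04 for Vim and 0.38 for both Pdgfrb and Dcn. Lrat had 0 and 1 counts in UBXN9 1 and 2 and 0 in both controls, and Col1a2 had 5 and 11 against 18 and 10. The list summed to 3098 and 2835 CPM in UBXN9 libraries and 2670 and 3051 CPM in controls, most of it Vim. Without Vim the sums were 369 and 442 CPM in UBXN9 libraries, against 238 and 217 CPM in controls. The part of these cells or transcripts in the class I levels was not tested.

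The genes nearest in pattern were found by the Euclidean distance between centred log2 CPM values over the 4 libraries. They are a description over few libraries. A prior count of 2 was added before the log, which draws in the changes of low genes. For H2-K1 the nearest genes were AC125149.3, Hsh2d and Zbp1, at distances of 0.186, 0.264 and 0.281. AC125149.3 had 46.8 and 43.2 counts in UBXN9 libraries against 0 and 0.17 in controls. Its edgeR log2 fold change was 8.55, against 4.80 for H2-K1. Zbp1, which senses nucleic acid in the Z form, had 517 and 397 CPM in UBXN9 libraries against 20.2 and 18.1 CPM in controls. For Nlrc5 they were Ifi206, Ifi208 and Gm4841, at 0.483, 0.49 and 0.521. Ifi206, of the PYHIN family, had 12.1 and 17.5 CPM in UBXN9 1 and 2, against 0.229 and 0.227 CPM in controls, and was thus higher in UBXN9 2 as Nlrc5 was. For B2m they were the low genes Ankmy1, A530040E14Rik and Gm31166, at 0.335, 0.363 and 0.416. Gm31166 had 37.8 and 14.6 counts in UBXN9 1 and 2, against 3.74 and 7.16 in the controls.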

How the data were processed

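RNA from 4 libraries, 2 from UBXN9-overexpressing and 2 from control LPC-HRas cells, was made into libraries with a TruSeq RNA kit and sequenced on an Illumina HiSeq instrument, per the labels' protocols. The deposited table holds estimated counts per gene, not scaled by the authors, whose processing notes name HISAT2 2.1.0, HTSeq and build GRCm38.p6; settings, annotation and strand handling are not given in the sources used here. Of 55728 entries, 241 are loci outside the annotation, 0.302% to 0.535% of counts, and were left out of tests. Of 55487 identifiers, 55227 were found in GENCODE M21 (GRCm38), which gave symbols, positions and exon lengths.

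Counts were rounded and fitted with edgeR 4.0.16 in R 4.3.3 (TMM, filterByExpr, quasi-likelihood F test, Benjamini-Hochberg over 13230 genes). Alternatives used DESeq2 1.42.0, limma 3.58.1, other scalings and filters, a replicate block, a loess offset on exon length, and each library left out. The ratio of libraries used a pseudocount of 0.1 CPM. Figures used matplotlib 3.10.9. The fits were tested on simulated counts. Precision rests on 2 libraries a group; floors cover counting error only. The genes named are Aspscr1, the 10 of the set, of each list up to 4 called genes with the smallest p and up to 2 others with the highest CPM, and the 3 nearest in pattern to H2-K1, B2m and Nlrc5. All other genes given with values (antisense and marker genes, H2-Q5, class II genes, Irf2, Irf8, Irf9 and the RFX, CREB/ATF and NF-Y genes among them) were picked after values were seen. The set and the lists were chosen with earlier results of these data known. The result for 1 further gene of the regulator list is not reported here.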

Additional observations from a re-analysis of the deposited data

How the results depend on the processing

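The rise of H2-K1, H2-D1, H2-Q4, H2-T22, H2-M3, B2m and Nlrc5 kept its direction and its call at an adjusted p under 0.05 in each other fit in which the gene was tested, 13 for H2-Q4 and 14 for the others; at an adjusted p under 0.01 B2m and H2-T23 were not called. H2-T23 kept its direction in 14 but was called in 8; with the replicate number as a block its adjusted p was 0.0719, and the cause was not tested. Of the 10 genes, between 7 and 9 were called with 1 library left out, 9 without the filter on low counts and 6 at the stricter threshold. The count over all genes, 984, was 1827 with no filter, where 22729 genes were tested, 1525 with the length offset and 398 at an adjusted p under 0.01, and ran from 508 to 2782 with 1 library left out. Library totals alone, which moved the median of all genes by -0.0898, gave 752. No paired origin is stated: same-numbered libraries had deviations that correlated at -0.373, and a replicate block gave 932 calls. A crossed pairing (control 1 with UBXN9 2), chosen after seeing the data, gave 3137 calls and called 8 of the 10 genes. Left out in turn, libraries gave 1 to 3 calls for other heavy chains, 0 to 1 for class I-like genes, 4 to 11 for regulators, 0 to 2 for class II, 0 to 2 for class I turnover and 0 to 1 for control genes. The length offset gave 1 call for class II and DESeq2 1 for turnover. Over the longest transcript in place of all exons, the UBXN9 level was 34.8 CPM per kilobase for H2-K1 and 435 for H2-D1. Depth limits H2-Q6 and H2-Q7, under 20 counts in each library, and 2 libraries a group limit every p. In the main fit H2-Q4 was tested only through its UBXN9 libraries, so the calls it kept are not read as support.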
